A study of Canis lupus familiaris with 4 samples.

Results

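The lines J3T-1 and J3T-2 both descend from the canine glioblastoma cells J3T, and gene expression was compared between them. They were chosen by their sample titles and gave 2 of the 4 arrays of the series. The samples label J3T-1 as a high and J3T-2 as a low expresser of annexin A2, a calcium-dependent membrane-binding protein encoded by ANXA2. The other arrays hold a line derived from each, J3T-1shA, labelled as an annexin A2 knockdown, and J3T-2A, labelled as an annexin A2 overexpressing line, and they were used here only to see whether a difference was also present between the derived lines. All lines were grown in the same serum-containing medium, and total RNA of each was hybridized once to an Affymetrix canine expression array. J3T-1 and J3T-2 are thus 2 sublines from 1 tumour, each measured in 1 RNA sample.

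Glioblastoma cells can take on different expression states. Nuclear factor-kB is a transcription factor that switches on chemokines, adhesion molecules and its own inhibitors after an inflammatory stimulus. Serum response factor and the YAP/TAZ-TEAD factors respond to the tension of the actin cytoskeleton, the former by activating smooth muscle contractile genes and the latter by activating CCN1 and CCN2. The matrix that tumour cells secrete, the proteases that cut it, and the receptors that bind it set how cells adhere and move through brain tissue.

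The values are MAS 5.0 signals, brightness on a linear scale that the authors scaled to one trimmed mean per array. A gene was represented by its brightest probe set (a group of short probes for one transcript) and counted as measured where the higher of both arrays reached 250. On each array 35.2% to 35.9% of all probe sets did so. HMGXB3, at 250.0 on J3T-1, lay just inside this limit and NHEJ1, at 249.9, just outside. Where the lower array was under 250 its signal may be mostly background, so the size of many such differences is given as a bound, "at least" the higher signal over 250. A log2 ratio printed for a gene with an array under 250 is that of the signals as read and measures no fold. With 1 array per line there was no replicate of a culture and no test could be run, so precision is limited by the array number. The only error that could be computed was the spread between probe sets of the same gene: the log2 ratios of the brightest and the next brightest measured probe set differed with an SD of 0.37 over 3764 genes. It covers measurement within 1 RNA sample and not variation between cultures.

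Of 15115 genes with a symbol, 6967 were measured. In J3T-1, 205 of them (2.94%) were over 2-fold higher than in J3T-2 and 282 (4.05%) were over 2-fold lower, so 6.99% differed over 2-fold in either direction. The median log2 ratio (J3T-1 over J3T-2, as for every ratio of the parental lines) was 0.03, and the central 80% of genes lay between -0.62 and 0.57. Differences over 10-fold were seen for 14 genes higher and 28 genes lower in J3T-1. A second probe set was measured for 85 of the higher genes and 111 of the lower genes. It gave the same direction for 84 and 111 of these and was itself over 2-fold for 49 and 86, and none was over 2-fold in the opposite direction. With signals under 250 set to 250, 130 genes (1.87%) were over 2-fold higher and 182 (2.61%) over 2-fold lower.

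The ANXA2 signal did not separate the lines. It was 28656 on J3T-1 and 30102 on J3T-2, a log2 ratio of -0.07, and a second probe set gave -0.33. Signals this bright lie high on the scale, where the brightest probe sets read 44434.6 to 46646.0. Whether they still followed the RNA amount was not tested. These RNA signals did not show the labelled difference between J3T-1 and J3T-2, and they do not settle the labels, which come from earlier work on the lines. The derived lines did not separate either, at 30093 on J3T-1shA and 28775 on J3T-2A. The second probe set read 24128 on J3T-1 and 25725 on the array labelled as its knockdown, which was not lower, and 30311 on J3T-2 and 35651 on J3T-2A. OSMR, the oncostatin M receptor, read 391.5 on J3T-1 and 200.8 on J3T-2, a log2 ratio of 0.96 that stayed within 2-fold. None of 14 measured housekeeping genes differed over 2-fold, and their median log2 ratio was 0.00.

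**Figure D1:**
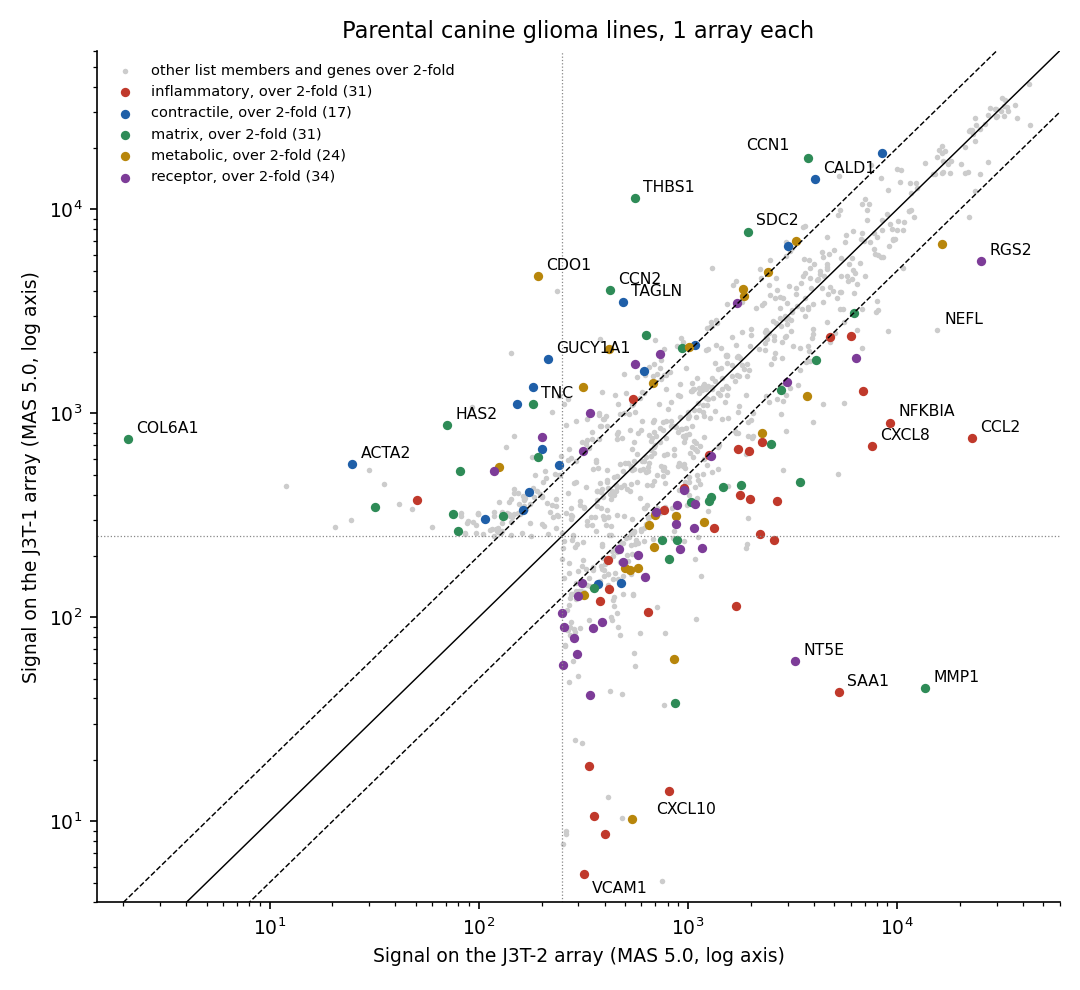
Signals of measured list members and of all genes over 2-fold on the J3T-1 array (vertical, log axis) against the J3T-2 array (horizontal, log axis), 1 point per gene; the solid line marks equal signals, dashed lines a 2-fold difference, and dotted lines the signal limit of 250. Genes over 2-fold are coloured by category (a gene in several categories is coloured once), and MMP1, SAA1, NT5E and CCL2 lie far below the diagonal while THBS1, CDO1, CCN2 and TAGLN lie far above it.

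Inflammatory genes were lower in J3T-1 where they differed over 2-fold, with few exceptions. Of 165 inflammatory genes on the array 73 were measured. Of these, 29 were over 2-fold lower in J3T-1 (39.7%, against 4.05% of all measured genes) and 2 were over 2-fold higher (2.74%, against 2.94%), and their median log2 ratio was -0.71. All gene lists, here and below, were chosen with earlier results of these data known. Their shares beside those of all genes are therefore descriptions and not tests. With signals under 250 set to 250, 22 were over 2-fold lower and 1 was over 2-fold higher.

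The chemokines, secreted attractants of leukocytes, had the lowest median of all lists. Of 21 on the array 7 were measured, and a gene under the limit in J3T-1 entered this count only through its signal in J3T-2. All 7 had a lower signal in J3T-1, 6 of them over 2-fold, with a median log2 ratio of -3.46. CCL2, which attracts monocytes, had a signal of 753.5 on J3T-1 and 22771 on J3T-2, which was 30.2-fold lower in J3T-1. CXCL8, the neutrophil attractant interleukin-8, read 691.1 on J3T-1 and 7610.7 on J3T-2, a log2 ratio of -3.46, while 2 further probe sets were under the limit on J3T-1, at 241.1 and 170.7, against 4317.1 and 2930.9 on J3T-2. CXCL14, a chemokine that many normal tissues make without inflammation, read 372.9 and 2664.4, a log2 ratio of -2.84, and -3.22 by a second probe set. The remaining members were under the limit in J3T-1. CXCL10, an interferon-induced attractant of T cells, had a signal of 14.1 on J3T-1 and 809.7 on J3T-2, at least 3.24-fold lower. CCL7, another monocyte attractant, read 8.7 and 400.3, at least 1.60-fold lower. CCL24, the eosinophil attractant eotaxin-2, read 137.9 and 420.0. CCL20, the ligand of CCR6, was within 2-fold at 311.4 and 413.3.

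Acute phase and complement genes ran the same way, with 4 of 8 measured members over 2-fold lower in J3T-1 and none higher. SAA1, the acute phase protein serum amyloid A, had a signal of 43.1 on J3T-1 and 5252.3 on J3T-2. This was at least 21.0-fold lower, and 2 further probe sets, also under the limit on J3T-1, gave at least 10.9-fold and at least 19.0-fold. C1S, a serine protease of the first complement component, read 239.4 and 2573.8, at least 10.3-fold lower. Its partner C1R read 119.9 and 382.1. SERPING1, which inhibits both proteases, was also lower, at 726.6 and 2266.4, a log2 ratio of -1.64. The complement genes CD59, CLU, C2 and CFI were within 2-fold, with log2 ratios from -0.40 to 0.46.

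Nuclear factor-kB genes held the most members over 2-fold among the inflammatory lists. Of 19 measured subunits and feedback targets, 11 (57.9%, against 4.05% of all measured genes) were over 2-fold lower in J3T-1 and none was over 2-fold higher. A log2 ratio below 0 was seen for 17 of 19. NFKBIA, the inhibitor that NF-kB induces to shut itself off, read 900.6 on J3T-1 and 9243.6 on J3T-2, 10.3-fold lower. NFKBIZ, a nuclear member of the same inhibitor family, read 106.4 and 642.7. Among the subunits, NFKB1 read 656.7 and 1961.9, a log2 ratio of -1.58. Its other probe sets did not match each other, at -1.37 and -0.02. NFKB2 read 192.1 and 414.9, at least 1.66-fold lower, and RELB was within 2-fold at -0.55. Effector genes of the list were also lower. VCAM1, an endothelial and stromal ligand that captures leukocytes, read 5.5 on J3T-1 and 317.6 on J3T-2. TNFAIP2, a gene induced by tumour necrosis factor, read 113.4 and 1691.7, at least 6.77-fold lower. SOD2, the mitochondrial superoxide dismutase, was 5.34-fold lower in J3T-1, at 1286.8 and 6865.6. GCH1, which makes the cofactor tetrahydrobiopterin, was 5.22-fold lower, at 379.1 and 1979.9. IER3, BCL2A1 and RIPK2, which act in cell survival and innate immune signalling, had log2 ratios of -1.33, -1.01 and -1.01. Second probe sets of BCL2A1 and RIPK2 were within 2-fold, at -0.92 and -0.73. Not every member was lower: ICAM1, a leukocyte ligand often induced with VCAM1, leaned the other way at 1548.7 and 785.1, a log2 ratio of 0.98. BIRC3, an apoptosis inhibitor induced by NF-kB, was also slightly higher in J3T-1, at 0.38.

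**Figure D2:**
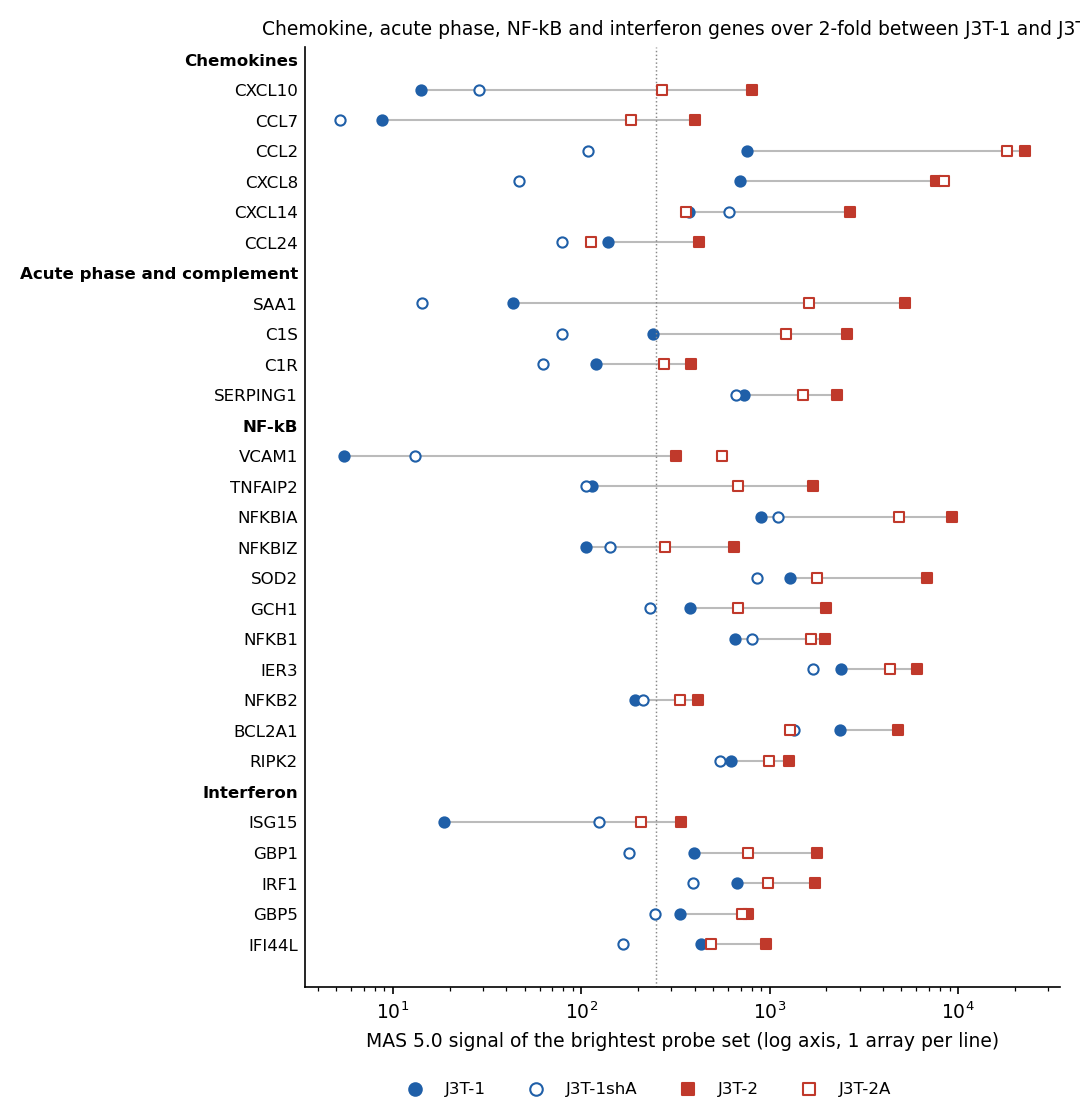
MAS 5.0 signals (log axis) of the chemokine, acute phase, NF-kB and interferon genes over 2-fold between J3T-1 and J3T-2, with filled symbols for the parental lines joined by a grey line and open symbols for the derived lines. Every filled square (J3T-2) lies to the right of its filled circle (J3T-1), and the dotted line marks the signal limit of 250.

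Interferon-response and antigen-presentation genes were also lower where they differed. Of 21 measured members 5 were over 2-fold lower in J3T-1 (23.8%, against 4.05% of all measured genes), none was over 2-fold higher, and the median log2 ratio was -0.68. ISG15, a ubiquitin-like modifier, read 18.6 on J3T-1 and 336.1 on J3T-2, at least 1.34-fold lower. GBP1, an interferon-induced GTPase, read 398.5 and 1774.0, a log2 ratio of -2.15. IRF1, a transcription factor of the response, read 672.3 and 1730.4, a log2 ratio of -1.36. GBP5 and IFI44L had log2 ratios of -1.20 and -1.15. Of the 21 members, 15 had a log2 ratio below 0 and 6 above 0. Type I interferon genes were uneven: STAT2, OAS2 and IFIT5 lay between 0.02 and 0.09, whereas IFI44, IFI6, IRF9 and IFI35 lay between -0.81 and -0.72. B2M, the light chain of class I molecules, and the immunoproteasome subunit PSMB8 were lower in J3T-1 within 2-fold, at -0.68 and -0.83.

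Eicosanoid enzymes were mixed, whereas all 7 measured cytokines had a lower signal in J3T-1, with a median log2 ratio of -0.71. IL11, an interleukin-6 family cytokine that signals through gp130, was the only 1 of 7 measured cytokines over 2-fold, at 255.7 on J3T-1 and 2220.7 on J3T-2, 8.68-fold lower. IL6 and LIF, of the same family, were under the limit in both lines. TNFSF18, the ligand of the T cell receptor GITR, lay outside the lists and read 218.4 and 1897.4, at least 7.59-fold lower. Of 11 measured prostaglandin and lipoxygenase genes, 2 were over 2-fold higher and 2 lower in J3T-1, and 1 each with signals under 250 set to 250. PTGES, which makes prostaglandin E2, read 275.5 and 1336.7, a log2 ratio of -2.28, and 2 further probe sets were under the limit on J3T-1. PTGDS, which makes prostaglandin D2, read 10.6 and 355.8. PTGIS, the prostacyclin synthase, ran in the opposite direction at 377.4 and 50.6, at least 1.51-fold higher. ALOX15B, a lipoxygenase, was 2.15-fold higher, at 1176.7 and 547.5. PTGS2, the cyclooxygenase upstream of all 3 prostaglandin synthases, was within 2-fold at 543.7 and 643.4.

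Contractile genes over 2-fold were mostly higher in J3T-1. Of 151 genes of the contractile lists on the array 63 were measured, and 15 were over 2-fold higher (23.8%, against 2.94% of all measured genes) and 3 over 2-fold lower (4.76%, against 4.05%). With signals under 250 set to 250, 12 were over 2-fold higher and 1 lower. The smooth muscle list held most of them, with 9 of 24 measured members over 2-fold higher, 1 lower, and a median log2 ratio of 0.66.

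ACTA2, the smooth muscle actin, had a signal of 562.2 on J3T-1 and 24.9 on J3T-2, at least 2.25-fold higher. TAGLN, the actin-bundling protein transgelin, read 3523.1 and 489.8, 7.19-fold higher, and 2 further probe sets gave log2 ratios of 2.86 and 4.39. CALD1, caldesmon, which restrains actomyosin, was bright in both lines at 14065 and 4034.0, a log2 ratio of 1.80. Its 3 further measured probe sets lay between 1.08 and 1.82. MYL9, the regulatory light chain of smooth muscle myosin, read 1610.5 and 615.5, a log2 ratio of 1.39. TPM1, tropomyosin, read 18976 and 8524.6, a log2 ratio of 1.15. The thin-filament proteins TAGLN2, TAGLN3 and CNN2 had log2 ratios of 1.14, 1.21 and 1.05, and the Z-disc adaptor PDLIM5 read 302.2 and 107.2. SORBS3, the focal adhesion protein vinexin, was the one member over 2-fold lower, at 145.9 and 370.8. Other contractile genes were above 0 without reaching 2-fold, among them FLNA at 0.67, SRF at 0.70, CNN1 at 0.42 and CSRP1 at 0.91. The mature smooth muscle marker MYH11 read 111.5 and 74.5 and DES, desmin, read 22.2 and 24.2, under the limit in both lines. STRIT1, a small peptide that raises calcium pump activity in muscle, was the one striated muscle gene over 2-fold, at 1350.8 and 181.0.

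Genes of nitric oxide and cyclic GMP signalling, which relaxes smooth muscle, were split. Of 8 measured members 3 were over 2-fold higher in J3T-1 and 1 was lower, and the median log2 ratio of 0.54 turned to -0.27 when both arrays had to reach 250. GUCY1A1, the alpha subunit of the soluble guanylate cyclase that senses nitric oxide, read 1842.2 on J3T-1 and 214.8 on J3T-2, at least 7.37-fold higher. Its beta partner GUCY1B1 was within 2-fold, at 0.86. NPR2, the receptor for C-type natriuretic peptide, read 670.2 and 201.0, at least 2.68-fold higher. ASS1, which recycles citrulline to arginine, read 413.6 and 174.8. GCH1, described above, was the lower one.

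Matrix genes differed in both directions, with 15 of 116 measured members (240 on the array) over 2-fold higher in J3T-1 (12.9%) and 16 over 2-fold lower (13.8%), against 2.94% and 4.05% of all measured genes. Of the genes higher in J3T-1, the CCN and thrombospondin group was bright. THBS1, which encodes thrombospondin-1, a matrix glycoprotein that inhibits angiogenesis, read 11390 on J3T-1 and 558.0 on J3T-2. It was 20.4-fold higher, the largest ratio in this direction where both arrays reached the limit, and a second probe set gave a log2 ratio of 3.84. CCN2, connective tissue growth factor, read 4024.2 and 425.8, 9.45-fold higher. CCN1, a related matricellular protein, read 17806 and 3763.6, 4.73-fold higher. ANKRD1, another well-known target of YAP/TAZ, was under the limit in both lines, at 124.6 and 6.8, and TAZ itself, encoded by WWTR1, was within 2-fold at 1983.1 and 2609.3.

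**Figure D3:**
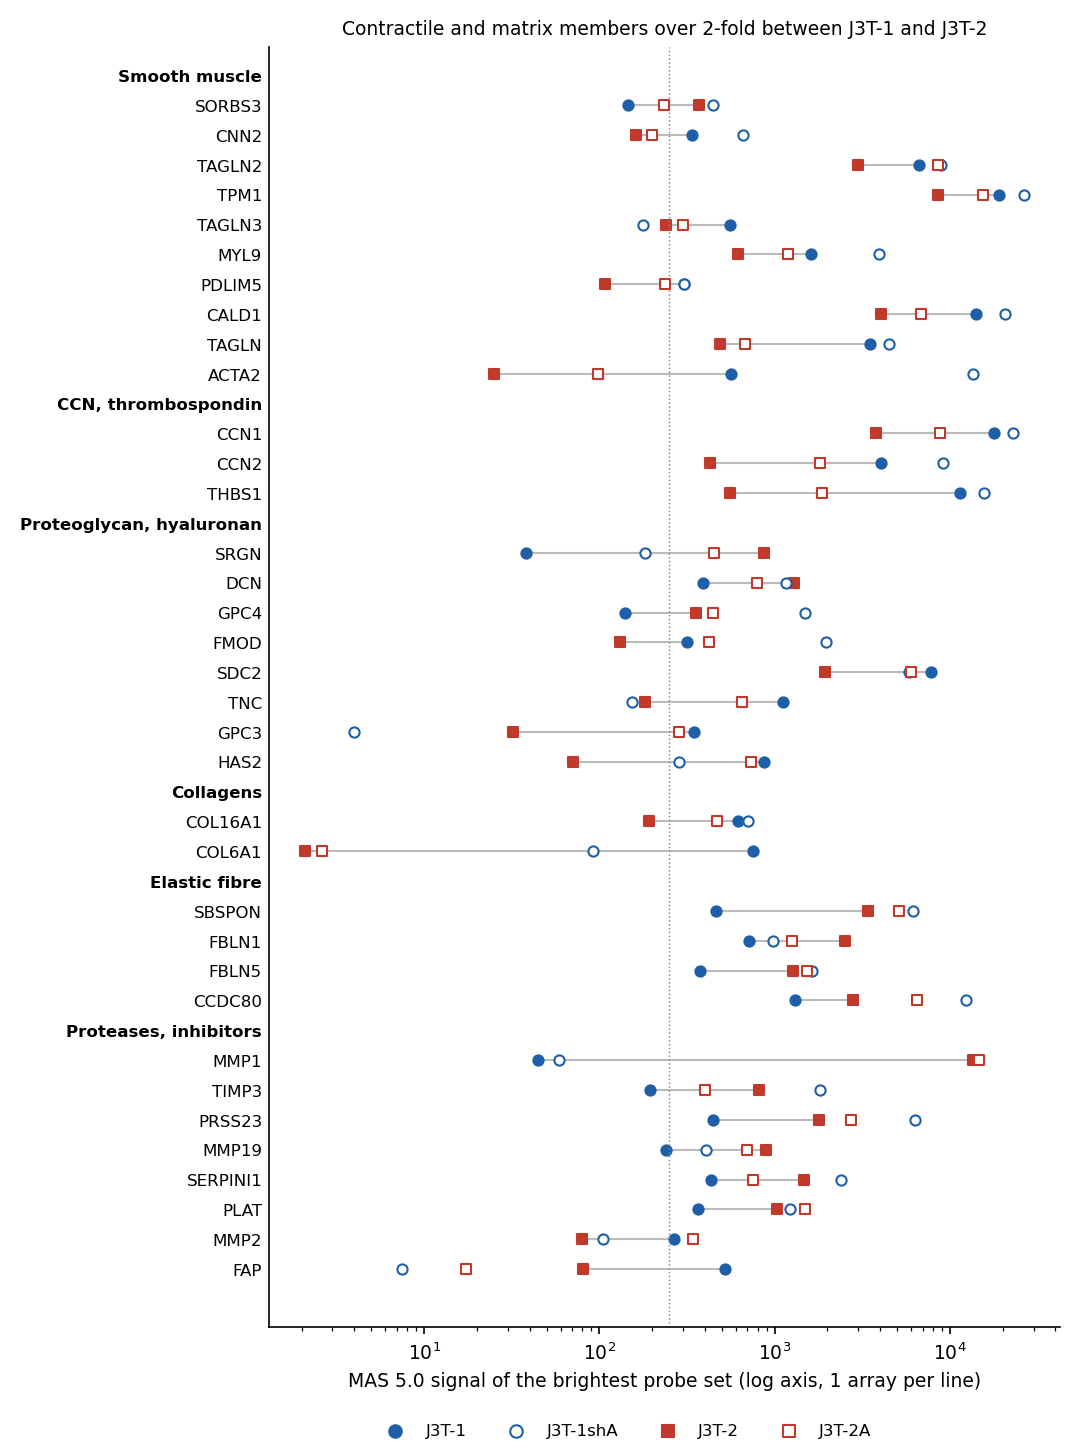
MAS 5.0 signals (log axis) of smooth muscle, CCN and thrombospondin, proteoglycan, collagen, elastic fibre and protease genes over 2-fold between J3T-1 and J3T-2, with filled symbols for the parental lines joined by a grey line and open symbols for the derived lines. For ACTA2, TAGLN, THBS1 and CCN2 both circles (J3T-1 and J3T-1shA) lie to the right of both squares (J3T-2 and J3T-2A), whereas for TNC, GPC3 and HAS2 the open circle lies to the left of the open square; the dotted line marks 250.

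Collagens that make up the bulk of the fibrillar matrix were close between the lines. COL1A2 was among the brightest genes at 21684 on J3T-1 and 23488 on J3T-2, a log2 ratio of -0.12, and COL1A1 was lower in J3T-1 within 2-fold at 2013.8 and 3798.8. COL4A1, a basement membrane chain, was at the edge with a log2 ratio of -0.99. Both chains over 2-fold, of 12 measured, were higher in J3T-1. COL6A1, the alpha 1 chain of microfibrillar collagen VI, read 750.3 on J3T-1 and 2.1 on J3T-2, and a second probe set, at 336.1 and 7.7, gave at least 1.34-fold higher. COL16A1, a fibril-associated chain, read 614.6 and 191.2, at least 2.46-fold higher. Of 21 measured collagen-processing genes 2 were over 2-fold higher and none lower. LOX, which cross-links collagen and elastin, read 2086.1 and 937.1. P3H2, a prolyl hydroxylase, read 320.7 and 75.7. Fibronectin (FN1, 0.14) and SPARC (-0.07) were level.

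Hyaluronan and proteoglycan genes had the highest share over 2-fold of the matrix lists. Of 17 measured, 5 were over 2-fold higher in J3T-1 and 3 lower, and with signals under 250 set to 250, 3 were higher and 2 lower. HAS2, which synthesizes hyaluronan, read 874.9 and 70.9, at least 3.50-fold higher. TNC, tenascin-C, a glycoprotein of glioma matrix, read 1113.7 and 182.0, at least 4.45-fold higher. GPC3, a membrane-anchored heparan sulfate proteoglycan, read 347.2 and 32.1. SDC2, the transmembrane proteoglycan syndecan-2, was bright in both lines at 7794.8 and 1934.6 and was 4.03-fold higher, with log2 ratios of 2.11 and 2.23 from further probe sets. FMOD, fibromodulin, read 314.7 and 130.8. Lower in J3T-1 were SRGN, an intracellular proteoglycan of secretory granules, at 37.9 and 869.9, and DCN, decorin, at 387.9 and 1292.0. GPC4 read 139.1 and 354.2. CD44, the main hyaluronan receptor, and VCAN, versican, were within 2-fold at 0.39 and 0.30.

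Of 21 measured elastic fibre and matricellular genes, 3 were over 2-fold higher in J3T-1, namely THBS1, CCN1 and CCN2, and 4 over 2-fold lower. SBSPON, a secreted protein with somatomedin and thrombospondin domains, read 460.0 on J3T-1 and 3423.6 on J3T-2, 7.44-fold lower, and a second probe set gave a log2 ratio of -2.78. The fibulins FBLN1 and FBLN5, which link elastic fibres to other matrix, had log2 ratios of -1.82 and -1.76. CCDC80, a secreted matrix protein, was at -1.10. Elastin (ELN, -0.54) and fibrillin-1 (FBN1, -0.62) were lower within 2-fold.

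Receptors for the matrix differed in both directions. ITGA5, the fibronectin-binding integrin subunit, read 2417.7 and 627.7, 3.85-fold higher in J3T-1. In contrast the laminin-binding subunit ITGA6, the collagen-binding subunit ITGA2 and ITGB3 were over 2-fold lower, with log2 ratios of -1.01, -1.16 and -1.66. The ITGA6 value was borderline, since its other probe sets gave -0.95 to -0.11. The common partners ITGB1 and ITGAV were level, at 0.36 and 0.08.

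MMP1, interstitial collagenase, had one of the widest gaps of any gene. It read 44.8 on J3T-1 and 13568 on J3T-2, at least 54.3-fold lower in J3T-1, and a second probe set, at 1.0 and 11845, gave at least 47.4-fold lower. Of 28 measured proteases and inhibitors 6 were over 2-fold lower in J3T-1 and 2 higher. The lower ones included MMP19 (239.2 and 888.9), the serine protease PRSS23 (445.7 and 1786.6) and the tissue plasminogen activator PLAT (367.7 and 1037.0). Inhibitors were lower too: TIMP3, a matrix-bound inhibitor of metalloproteinases, read 194.1 and 816.8, and SERPINI1, neuroserpin, read 435.0 and 1479.3. Higher in J3T-1 were FAP, a serine protease of activated fibroblasts, at 519.6 and 81.1, and MMP2, a gelatinase, at 266.5 and 79.3, the latter only just above the limit. Neither line stood out for PLAU, MMP14, TIMP1 or TIMP2, whose log2 ratios lay between -0.41 and -0.03.

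**Figure D4:**
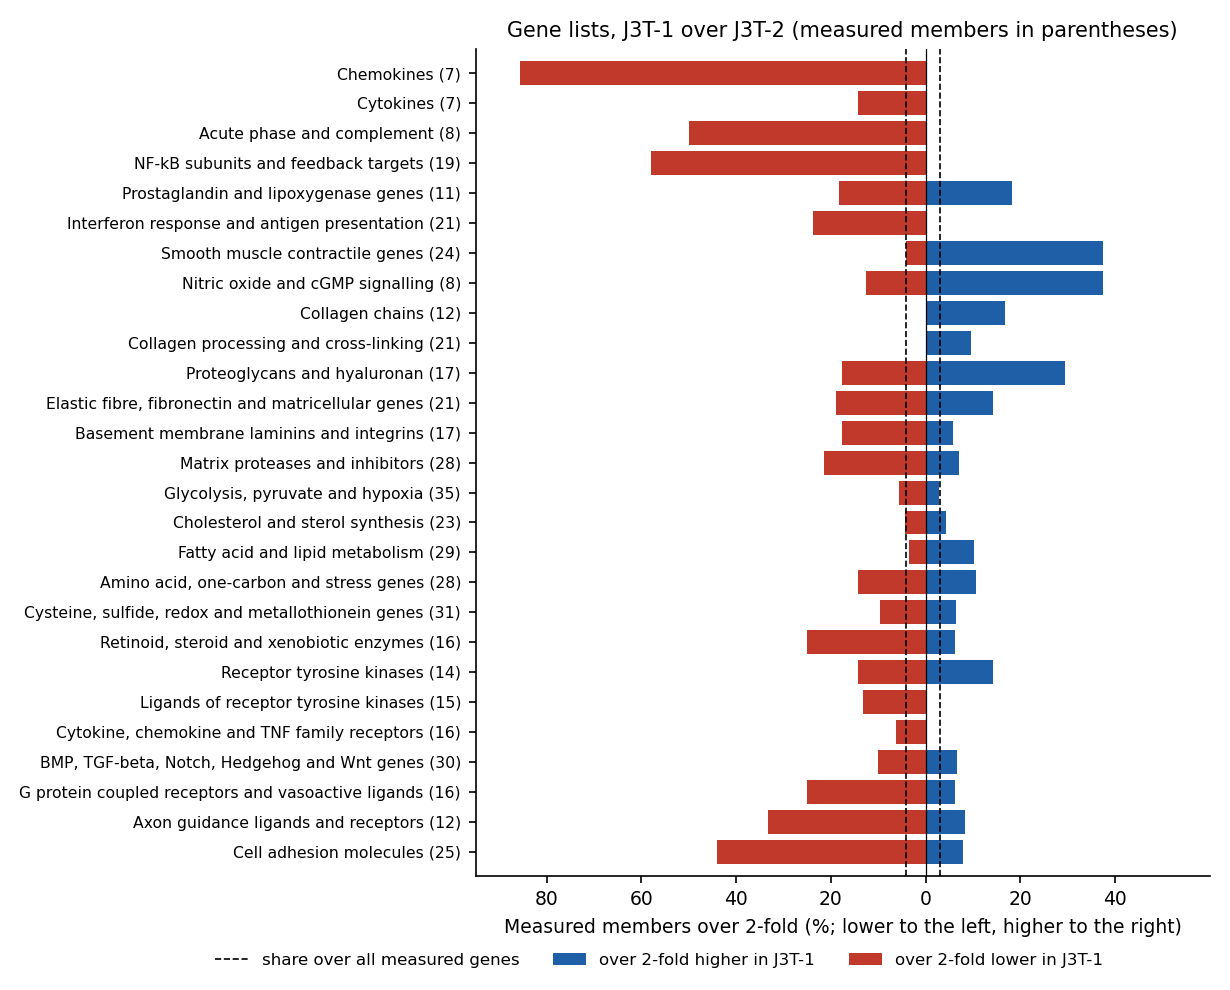
Share of measured members over 2-fold lower (left, red) and higher (right, blue) in J3T-1 than in J3T-2 for each inflammatory, contractile, matrix, metabolic and receptor list reported here with at least 5 measured members (number in parentheses); dashed lines mark the shares over all measured genes, 4.05% lower and 2.94% higher. Chemokine, NF-kB, acute phase and cell adhesion lists extend furthest to the left, smooth muscle and nitric oxide lists furthest to the right, and glycolysis and cholesterol lists stay near the dashed lines.

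Most metabolic genes were within 2-fold. Of 162 measured metabolic genes (226 on the array) 11 were over 2-fold higher in J3T-1 (6.79%, against 2.94% of all measured genes) and 15 over 2-fold lower (9.26%, against 4.05%), and the median log2 ratio was 0.01. Glycolysis and hypoxia genes gave 1 higher and 2 lower of 35 measured, and the bright members LDHA (31383 and 27728), PGK1 (9847.5 and 11467) and CA9 (7366.6 and 7989.6) were within 2-fold. VEGFA, the vascular growth factor, read 4725.1 and 4469.9, a log2 ratio of 0.08. Cholesterol synthesis genes gave 1 of 23 in each direction. INSIG1, which holds back sterol synthesis, was just over 2-fold higher at 1.02, but a second probe set gave 0.22. NPC2, which carries cholesterol out of lysosomes, read 804.3 and 2272.7.

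The metabolic genes over 2-fold were single members of several lists. CDO1, cysteine dioxygenase, which commits cysteine to taurine and sulfate, had a signal of 4729.9 on J3T-1 and 192.4 on J3T-2. It was at least 18.9-fold higher, and 3 further probe sets gave log2 ratios of 3.32 to 3.65. The other cysteine and glutathione genes were close: CTH, which makes cysteine from cystathionine, and GCLM, a subunit of the first enzyme of glutathione synthesis, were higher within 2-fold, at 0.74 and 0.96. Catalase (CAT) read 1219.1 and 3718.4, a log2 ratio of -1.61, and the sulfurtransferase TST was at -1.21. ME1, the cytosolic malic enzyme that yields NADPH, was 2.22-fold higher, and a second probe set gave a log2 ratio of 0.87. ADM, adrenomedullin, a vasodilator peptide induced by hypoxia, read 2075.1 and 418.1, 4.96-fold higher, while the hypoxia-responsive NDRG1 read 175.0 and 500.2. PDK2, which inhibits pyruvate dehydrogenase, was lower at 175.5 and 577.9.

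Single genes of amino acid metabolism lay just over 2-fold. PSAT1, an enzyme of serine synthesis, read 7014.8 and 3292.5, a log2 ratio of 1.09, and PSPH, of the same route, read 4957.7 and 2422.0, a log2 ratio of 1.03. PHGDH, the first enzyme of the route, was within 2-fold at 0.43, and further probe sets of PSAT1 and PSPH were below 1.09 but no lower than 0.82. IDO1, the interferon-inducible enzyme that degrades tryptophan, was lower in J3T-1 at 10.3 and 543.3, at least 2.17-fold. DDIT3 (CHOP), which responds to endoplasmic reticulum stress, read 170.8 and 527.8, at least 2.11-fold lower, and SLC38A2 and VLDLR had log2 ratios of -1.13 and -1.48.

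Lipid and retinoid genes differed one by one. PLPP3, a phosphatase that removes lysophosphatidic acid, read 62.5 on J3T-1 and 857.1 on J3T-2, at least 3.43-fold lower. FABP5 and ACSL1, which bind and activate fatty acids, were each just over 2-fold higher at 1.05, but a second probe set of ACSL1 gave 0.63. For PNPLA2, the fat-droplet lipase, the brightest probe set gave 2.13 and a second one 0.12, so the probe sets did not match. RDH10 and RBP4, which oxidize and carry retinol, were lower in J3T-1, at 293.6 and 1195.3 and at 6785.1 and 16458. CYP1B1 and HSD11B2, a xenobiotic oxidase and the enzyme that inactivates cortisol, had log2 ratios of -1.63 and -1.32. ALDH2, mitochondrial aldehyde dehydrogenase, was higher at 2.09, with 0.76 from a second probe set. SLC2A9, a urate transporter outside the lists, read 503.8 and 5219.8, 10.4-fold lower.

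Receptor and adhesion genes were more often lower than higher in J3T-1, with 27 of 128 measured members (437 on the array) over 2-fold lower (21.1%, against 4.05%) and 8 over 2-fold higher (6.25%, against 2.94%). With signals under 250 set to 250, 15 were lower and 8 higher. Among 14 measured members of the receptor tyrosine kinase list, PDGFRA read 88.9 on J3T-1 and 352.7 on J3T-2, at least 1.41-fold lower. NTRK2, the receptor of brain-derived neurotrophic factor, read 287.3 and 873.4, a log2 ratio of -1.60, and was under the limit on J3T-1 by a second probe set, at 32.1 and 386.7. EPHA2, an ephrin receptor, was higher (1.05). IGF2R, the scavenger of insulin-like growth factor 2, was higher too (1.55), but it is not a kinase although the list holds it. EGFR was under the limit in both lines at 6.4 and 22.5, while MET and AXL were within 2-fold at 0.18 and 0.54. HGF, the ligand of MET, read 218.0 and 1162.9, at least 4.65-fold lower in J3T-1. EREG, epiregulin, a ligand of EGFR, read 186.7 and 488.3.

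Cytokine receptors were nearly level, with 1 of 16 measured over 2-fold, GHR, the growth hormone receptor, at -1.31. Among the rest TNFRSF1A, a receptor of tumour necrosis factor, was at -0.31 and IFNGR1 at -0.77. SOCS2, a feedback inhibitor of growth hormone signalling outside the lists, read 1017.8 and 224.7, at least 4.07-fold higher in J3T-1. Of 30 measured genes of the BMP, TGF-beta, Notch, Hedgehog and Wnt pathways 2 were higher and 3 lower, and 1 was lower with signals under 250 set to 250. WNT5B, a noncanonical Wnt ligand, read 1741.5 and 558.9, and FRZB, a secreted Wnt antagonist, read 523.0 and 117.9. INHBA, the activin A subunit, GLI1, a Hedgehog target, and TWSG1, a BMP-binding protein, had log2 ratios of -2.04, -1.22 and -1.09.

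Of 16 measured G protein coupled receptor and vasoactive genes 1 was over 2-fold higher, ADM, given above, and 4 were lower, 2 of them with signals under 250 set to 250. RGS2, which shortens the signal of Gq-coupled receptors, read 5596.4 on J3T-1 and 25192 on J3T-2, 4.50-fold lower, and further probe sets gave log2 ratios of -3.29 and -3.27. Receptors lower in J3T-1 as well were CHRM3, a muscarinic receptor, at 274.6 and 1068.1, EDNRA, an endothelin receptor, at 66.0 and 293.8, and F2RL1, protease-activated receptor 2, at 78.8 and 284.1. In the axon guidance list, 4 of 12 measured genes were lower and 1 higher, and 2 were lower with signals under 250 set to 250. NRP1, a co-receptor of semaphorins and VEGF, read 201.9 and 575.9, and FLRT2 read 157.3 and 623.4. SEMA3B and SEMA4C, a secreted and a membrane-bound semaphorin, were close to the limit on J3T-2, at 256.6 and 310.3. PLXND1, a semaphorin receptor, was the higher one at 766.3 and 199.8.

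Cell adhesion molecules gave 11 of 25 measured members over 2-fold lower (44.0%, against 4.05% of all measured genes) and 2 higher (8.0%, against 2.94%) in J3T-1. With signals under 250 set to 250, 7 were lower and 2 higher. NT5E, which encodes CD73, the surface enzyme that makes adenosine, led them at 61.2 on J3T-1 and 3259.4 on J3T-2, and a second probe set, at 42.8 and 962.9, gave at least 3.85-fold lower. PPL, periplakin, a desmosomal linker, read 1879.2 and 6356.9, a log2 ratio of -1.76. THY1, a surface glycoprotein of neurons and fibroblasts, read 216.4 and 915.7, at least 3.66-fold lower. NRCAM, a neuronal adhesion molecule, was at -1.58. ALCAM, EMB, CADM1 and PKP2 lay between -1.18 and -1.05, and further probe sets of CADM1 gave -1.03 and -0.14. NECTIN2, NECTIN3 and CD276 reached only 250.6 to 340.3 on J3T-2 and were under the limit on J3T-1. Cadherins took the other direction: CDH13 and CDH11 had log2 ratios of 1.41 and 1.02, and CDH2, N-cadherin, was within 2-fold at 0.22. Second probe sets of CDH13 and CDH11 stayed just within 2-fold, at 0.96 and 0.99. CADM4, an adhesion molecule outside the lists, read 228.1 and 1913.4.

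The glioma label was checked against lineage markers. Neither line carried the defining astrocyte markers, since GFAP read 14.3 on J3T-1 and 21.6 on J3T-2 and AQP4 and S100B were at or under 16.9, while the glutamate transporter SLC1A3 read 2422.1 and 1996.2. VIM (41177 and 42738) and SOX2 (936.8 and 1454.3), which neural stem cells express, were above the limit in both lines, whereas NES, PROM1, MSI1 and FABP7 were not. NEFL, the neurofilament light chain of neurons, was bright and differed, at 2561.0 on J3T-1 and 15463 on J3T-2, 6.04-fold lower. The other neuronal markers SNAP25, SYT1, STMN2 and RBFOX3 were under 110 in both lines, and TUBB3 was within 2-fold at 0.39. CNP, an enzyme of myelin-forming cells, read 396.9 and 1014.4, and PDGFRA, of the same lineage, read 88.9 and 352.7. SOX10, CSPG4, MBP and MOG of that lineage were at or under 216.8. Some matrix genes of fibroblasts were strong in both lines: COL1A2, given above, and LUM, lumican, at 14940 and 25065. Other fibroblast and pericyte markers were not. PDGFRB (84.9 and 66.0) and RGS5 (11.5 and 30.2) were under the limit in both lines, ACTA2 on J3T-2 and THY1 on J3T-1.

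Markers of other cell types were sparse. PECAM1, which encodes CD31, read 37.0 on J3T-1 and 773.2 on J3T-2, at least 3.09-fold lower. The other endothelial markers CDH5, VWF, TEK, KDR and CLDN5 were at or under 87.6 in both lines, so the summed signal of the 6 endothelial markers was 223.0 on J3T-1 and 1094.3 on J3T-2, mostly PECAM1. Of the 7 microglia and macrophage markers, C1QA read 661.5 and 317.4 and the others, AIF1, CD68, C1QB, CSF1R, PTPRC and CD14, were at or under 107.3. The summed signals of these 7 were 905.8 and 618.0, mostly C1QA, and their part in the inflammatory difference was not tested. Of the epithelial markers KRT8 was lower in J3T-1, at 435.4 and 1076.3, and EPCAM and CDH1 were at or under 13.9.

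Cell cycle genes differed little. Of 38 measured cell cycle genes none was over 2-fold lower in J3T-1 (against 4.05% of all measured genes). Over 2-fold higher were 2 (5.26%, against 2.94%). These were CCND2, cyclin D2, at 5640.0 and 2483.5, and PLK2, a stress-responsive polo-like kinase, at 1075.5 and 93.0. TOP2A, CDK1, PCNA and AURKA, which mark cycling cells, lay between -0.45 and 0.48. Immediate early genes were level for EGR1 (-0.12) and within 2-fold for FOS (-0.62), whereas the transcription factors KLF4 and NR4A2 were lower, at -1.33 and -1.70. Of 18 measured annexins and S100 proteins 2 were over 2-fold lower in J3T-1 (11.1%, against 4.05%), S100A1 (66.7 and 549.9) and S100A5 (150.2 and 382.0). S100A10, the partner of annexin A2, read 20191 and 21178, a log2 ratio of -0.07.

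Several of the largest differences lay outside the lists. PHLDB2, which anchors microtubules near focal adhesions, read 2312.8 on J3T-1 and 381.4 on J3T-2, 6.06-fold higher, with log2 ratios of 2.12 and 2.74 from further probe sets. ANK3, the membrane scaffold ankyrin-G, read 1975.0 and 142.2, at least 7.90-fold higher. PHYHIPL read 3976.2 and 235.9, at least 15.9-fold higher, and its further probe sets gave at least 6.15-fold and at least 3.96-fold. PSTPIP1, a cytoskeletal adaptor, AUTS2, a nuclear regulator of neurodevelopment, and LOC476006, which has no assigned name, had log2 ratios of 2.34, 2.14 and 2.12. Lower in J3T-1 were CMBL, a hydrolase, and TCIM, a regulator of Wnt signalling, at 308.5 and 1938.7 and at 527.3 and 2856.1. NAPRT, which makes NAD from nicotinic acid, read 160.1 and 1151.2, and HNMT, which inactivates histamine, read 246.5 and 1123.4.

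The 2 derived lines gave a second, separate pair of arrays with the same origins, J3T-1shA from J3T-1 and J3T-2A from J3T-2, and with the annexin A2 labels reversed. The brightest ANXA2 probe set given above did not show the labelled difference in either pair. The second probe set was higher on J3T-2A than on J3T-1shA, within 2-fold. Among 6846 genes measured in that pair, 182 (2.66%) were over 2-fold higher and 213 (3.11%) over 2-fold lower in J3T-1shA than in J3T-2A, 5.77% in all. Of the 205 genes higher in J3T-1, 167 were measured there. Of these 32 (19.2%) were over 2-fold higher in J3T-1shA, 11 (6.59%) were over 2-fold lower, and the median log2 ratio was 0.24. Of the 282 genes lower in J3T-1, 213 were measured, 65 (30.5%) were over 2-fold lower in J3T-1shA, 11 (5.16%) were over 2-fold higher, and the median was -0.38. Among the 6192 measured genes within 2-fold between the parental lines these shares were 1.07% higher and 2.00% lower. Most parental differences were thus smaller than 2-fold between the derived lines, and 97 had the same direction over 2-fold.

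**Figure D5:**
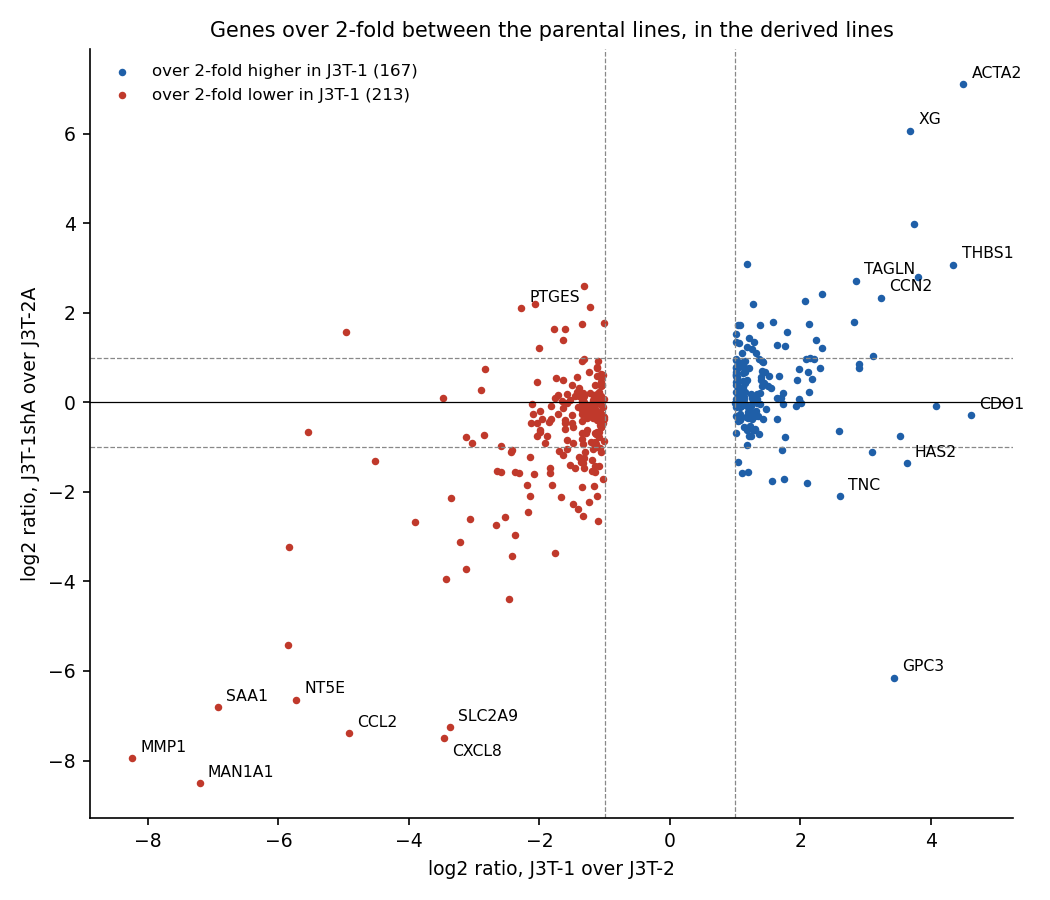
log2 ratio of J3T-1shA over J3T-2A (vertical) against that of the parental lines, J3T-1 over J3T-2 (horizontal) for genes over 2-fold between the parental lines and measured in both pairs, 1 point per gene; dashed lines mark 2-fold. MMP1, SAA1, NT5E, CCL2, CXCL8 and SLC2A9 stay at the lower left and ACTA2, THBS1, TAGLN and CCN2 at the upper right, while GPC3, TNC and HAS2 lie at the lower right and PTGES at the upper left.

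Many inflammatory genes kept their order by line of origin. CCL2 read 108.3 on J3T-1shA and 18212 on J3T-2A, CXCL8 read 46.9 and 8418.4, SAA1 read 14.3 and 1609.2, and NFKBIA read 1102.9 and 4862.7. Of 18 NF-kB genes measured in the derived pair 8 were over 2-fold lower in J3T-1shA and none was over 2-fold higher. Over all genes measured in that pair, 3.11% were over 2-fold lower and 2.66% higher. Others did not keep it: PTGES (2.10 between the derived lines) and ALOX15B (-1.57) were reversed over 2-fold, and CXCL14 (0.75), BCL2A1 (0.07) and IL11 (-0.77) were within 2-fold. Also kept were MMP1, at 59.2 and 14605, and NT5E, at 7.4 and 738.1.

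Contractile and CCN genes were likewise higher in the line from J3T-1. Of 29 smooth muscle genes measured in the derived pair 11 were over 2-fold higher in J3T-1shA and none was over 2-fold lower, against 2.66% and 3.11% of all genes measured there. ACTA2 read 13625 on J3T-1shA and 98.7 on J3T-2A, a wider gap than between the parental lines, TAGLN read 4486.7 and 680.3, and MYL9 read 3951.3 and 1194.9. THBS1 read 15622 and 1851.1, CCN2 read 9185.3 and 1808.3, and CCN1 read 22960 and 8776.4. The metabolic outlier CDO1 did not keep its difference, at 643.6 and 781.8, nor did SDC2, at 5871.8 and 5971.9.

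Genes whose order was reversed between the pairs included matrix and signalling genes. TNC read 152.9 on J3T-1shA and 649.2 on J3T-2A, and HAS2 read 285.4 and 733.1, both lower in the line from J3T-1 although higher in J3T-1 itself. GPC3 read 4.0 and 284.3, GUCY1A1 387.4 and 836.3, and MMP2 105.3 and 342.2, again the reverse of the parental order. In the other direction TIMP3 read 1826.5 and 400.5, CYP1B1 read 3360.6 and 1269.6, and GPC4 read 1498.9 and 447.1. Origin and annexin A2 label run in opposite senses across the pairs, and the brightest ANXA2 probe set did not show the labelled difference. Each array holds 1 RNA sample, so the part of origin or label in these values was not tested.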

How the data were processed

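Total RNA of 4 canine glioblastoma lines was hybridized to 1 GeneChip Canine Genome 2.0 array each. Per the deposited table and the study's methods, the authors computed each probe set's signal intensity on a linear scale with MAS 5.0 (default settings) and scaled each array globally. The deposited columns had trimmed means of 495.8 to 496.0 (lowest and highest 2% left out), above the target named in the methods, so the limit of 250 holds for the deposited scale only. Detection calls were not used here.

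Of 42924 probe sets, 29254 had 1 gene symbol in the platform annotation; 439 with several and 13231 not listed were left out of gene counts. Symbols were looked up by Entrez identifier for 27680, and 0 changed. Each of 15115 genes was read from its brightest probe set by mean signal over the 4 arrays. Log2 ratios (J3T-1 over J3T-2) were taken without further normalization, pseudocount or floor, and a ratio over 2 was called different. With 1 array per line no test was run.

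Genes named were ANXA2, OSMR, the 10 largest ratios per direction with both arrays at or over 250, the 10 brightest per direction with the other array under 250, and members of 40 gene lists over 2-fold. Members within 2-fold, the genes under the limit and the marker genes are examples. All members and lists were chosen with earlier results of these data known. The ratio code was run on simulated data (200 of 200 changed genes recovered). The changed genes were well over 250 on both arrays and were changed by well over 2-fold. The simulation therefore does not test calls near either limit. The contractile totals include a list of cytoskeletal genes whose own results are not reported here. Promoter motifs were not analysed here, and no positions are given because the array table names no genome build. Python 3.11.15, pandas 2.3.3 and numpy 2.4.6 were used.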

Additional observations from a re-analysis of the deposited data

Results flagged for a closer look

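Between J3T-1shA and J3T-2A, 22 genes over 2-fold between the parental lines were over 2-fold in the opposite direction, a difference that was not tested because each line has 1 array. Those with a signal of at least 250 on all 4 arrays are given here. FABP5 was higher in J3T-1 (log2 ratio 1.05) and lower in J3T-1shA (-1.34), and SLC37A2 likewise (1.20 and -1.55). The others were lower in J3T-1 and higher in J3T-1shA: PTGES (-2.28 and 2.10), ITGA6 (-1.01 and 1.78), NTRK2 (-1.60 and 1.65), SERPINI1 (-1.77 and 1.65) and PRSS23 (-2.00 and 1.22).

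Probe sets with no listed gene also differed. Of 3661 measured, 159 (4.34%) were over 2-fold higher in J3T-1 and 152 (4.15%) over 2-fold lower, with a median log2 ratio of 0.04. Over all measured genes these shares were 2.94% and 4.05%, counted there once per gene and here once per probe set.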

How the results depend on the processing

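Counts depended on the signal limit. Genes over 2-fold higher in J3T-1 went from 205 to 130 (limit of 500), 1497 (no limit), 101 (limit on both arrays), 130 (pseudocount of 80) and 130 (signals under 250 set to 250). Genes lower went from 282 to 182 (limit of 500), 1638 (no limit), 129 (both arrays) and 182 (signals set to 250). List members over 2-fold, 151, became 403 with no limit and 79 with the limit on both arrays. Genes over 2-fold the same way in the derived pair, 97, became 62 (limit of 500), 734 (no limit), 35 (both arrays) and 62 (signals set to 250). A limit of 500 and signals set to 250 give the same calls by construction. Setting signals to 250 was added after the data were seen.

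Of 36 list medians under 9 alternatives, 304 values were within the spread between probe sets and 17 moved further. A change of sign was counted only for medians over 0.37 in size, and 3 values met this. Smaller medians that crossed 0, such as those of the elastic fibre and axon guidance lists below, are counted among the others. The Chemokines median of -3.46 became -4.19 (limit of 500), -1.29 (no limit), -2.60 (pseudocount), -4.10 (median of probe sets) and -1.70 (signals set to 250). Cytokines became -0.15 (no limit), -0.21 (both arrays) and -0.21 (signals set to 250). Acute phase and complement became -1.66 (no limit), -0.34 (both arrays) and -0.51 (signals set to 250). Nitric oxide and cGMP signalling changed sign to -0.09 (no limit) and -0.27 (both arrays). Ligands of receptor tyrosine kinases changed sign to 0.11 (no limit) and became -0.06 (both arrays). Without a limit, elastic fibre, fibronectin and matricellular genes were at 0.13 and cell adhesion molecules at 0.18. At a limit of 500, G protein coupled receptors and vasoactive ligands were at 0.30 and axon guidance genes at 0.18, and the latter at 0.07 with the limit on both arrays. The cause of each shift was not tested. Quantile normalization, centring of the median and the choice of probe set by the parental arrays alone moved no count by over 1.5 times. No named gene with a log2 ratio over 0.37 in size changed sign, and of 167 named genes 75 moved by over 0.37 in at least 1 alternative.

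No paired analysis was possible because each line has 1 array and the labels carry no replicate numbers.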

Other observations

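Among developmental transcription factors that the lists did not cover, chosen after their values were seen, HOXD10 and PAX6 differed over 2-fold between the lines. Of 21 HOX genes on the array 2 were measured, and of these HOXD10 read 441.7 on J3T-1 and was under the limit on J3T-2 (at least 1.77-fold higher, and at least 1.37-fold by a second probe set) while HOXA5 read 995.6 and 975.2. HOXD10 was not measured between the derived lines, at 183.8 on J3T-1shA and 4.3 on J3T-2A, both under the limit. Of 9 PAX genes 1 was measured: PAX6, an eye and forebrain regulator, read 824.0 and 2957.7 between the parental lines and 680.7 and 2017.2 between the derived ones. MAN1A1, a Golgi mannosidase, and XG, a blood group antigen, were also split by line of origin, MAN1A1 at 5.1 and 752.6 on the parental and 3.1 and 1123.3 on the derived arrays, and XG at 452.0 and 35.3 and at 349.6 and 5.2.

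Single immune genes outside the lists, also chosen after their values were seen, differed in both directions. FGL2, a secreted regulator of immune cells, read 1123.6 on J3T-1 and 5573.6 on J3T-2. MILR1, a mast cell surface receptor, read 83.6 and 779.5, and GBP6, an interferon-induced GTPase, read 83.6 and 592.2. Higher in J3T-1 were BTK, a kinase of B cell receptor signalling, at 359.9 and 176.9, and DEFB124, a defensin, at 876.1 and 260.7.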
